A study of Danio rerio with 12 samples.

Results

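The mevalonate pathway genes described here were *hmgcs1* (ENSDARG00000103025), *hmgcra* (ENSDARG00000052734), *mvk* (ENSDARG00000004130), *mvda* (ENSDARG00000099336), *fdps* (ENSDARG00000040890), *ggps1* (ENSDARG00000023627) and *insig1* (ENSDARG00000010658). These 7 genes were found among the 31953 genes listed at 5 days post fertilization (dpf) and the 20963 genes listed at 8 dpf. They were chosen by their differences in normalized value between mutant and wild-type larvae within each age, as the isoprenoid arm of sterol synthesis, so these differences are given below as descriptions, with no test. Each RNA-Seq library came from a pool of 5 whole zebrafish larvae of the AB line, with 3 pools per group and 12 libraries in all. The mutant pools (Mut) carried the genotype *mia40a*waw1/waw1 and the control pools were wild-type siblings (WT). Mia40a is an oxidoreductase of the mitochondrial intermembrane space that folds proteins imported there, and the study made its mutants with TALENs. Both genotypes were sampled at 5 dpf and, after external feeding from 5 dpf, at 8 dpf, so that age and feeding cannot be told apart between the ages. In RNA of whole larvae, fewer cells of a type and less RNA per cell cannot be told apart either.

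The mevalonate pathway builds isoprenoid units from acetyl-CoA. Its product farnesyl diphosphate is a branch point: squalene synthase draws on it for cholesterol, while other enzymes use it for ubiquinone, dolichol and the lipid anchors of small GTPases. In vertebrates the genes of this pathway are transcribed together under the transcription factor SREBP2, which is released from the endoplasmic reticulum by its escort Scap when sterols are low, and Insig proteins hold this complex back when sterols are plentiful. The liver and the intestine are main sites of sterol synthesis and handling.

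The values described are read counts per gene that were normalized within each age, and their sums ranged from 16997847 to 18177809 per library at 5 dpf and from 22595423 to 25417541 at 8 dpf. The ages were normalized separately. At 8 dpf the libraries formed 2 batches, pools 1 and 2 of each genotype in the first and pool 3 in the second, and the authors had removed the shift between them. The *mia40a* transcript itself had values of 264, 262 and 261 in Mut against 82, 91 and 92 in WT at 5 dpf, and of 383, 413 and 443 against 488, 394 and 397 at 8 dpf. Its level therefore says nothing about loss of the protein. Nothing in the labels says that pools came from separate clutches, so the spread given here is the spread between these pools. At 8 dpf it is the spread left after removal of the batch shift.

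*hmgcs1* encodes the HMG-CoA synthase of the cytosol, which makes the substrate of the pathway's rate-limiting step. At 5 dpf its normalized values were 827, 1070 and 1337 in WT and 2280, 2231 and 1663 in Mut, with means of 1078 ± 255 and 2058 ± 343 (SD, n = 3). Every Mut pool was above every WT pool, and the log2 fold change, computed as for all genes on log2 of the value plus 1, was 0.95 (SE 0.17). At 8 dpf the order was the opposite. The values were 3705, 2763 and 3096 in WT and 1305, 1170 and 1287 in Mut, or 3188 ± 478 and 1254 ± 73.3 (SD, n = 3). The log2 fold change was -1.34 (SE 0.11), or 2.53-fold lower in Mut on the fitted scale, and the lowest WT pool was well clear of the highest Mut pool.

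*hmgcra* encodes HMG-CoA reductase, the rate-limiting enzyme and the target of statins. It differed less clearly at 5 dpf, the WT pools having 1001, 1438 and 1994 against 2498, 1936 and 1563 for Mut. The genotypes overlapped, since the highest WT pool lay above 2 of the 3 Mut pools, and the log2 fold change was 0.47 (SE 0.23). At 8 dpf the WT pools had 2160, 1737 and 2214 and the Mut pools 1117, 979 and 922, so that each Mut pool was below each WT pool. The means were 2037 ± 261 and 1006 ± 100 (SD, n = 3), a log2 fold change of -1.01 (SE 0.11).

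*mvk* encodes mevalonate kinase, which phosphorylates mevalonate. Its values at 5 dpf were 73, 64 and 53 in WT and 131, 107 and 98 in Mut, all Mut pools being higher, with a log2 fold change of 0.81 (SE 0.17). At 8 dpf they were 206, 166 and 158 in WT and 101, 91 and 113 in Mut, all Mut pools being lower, with a log2 fold change of -0.79 (SE 0.17). Its normalized read counts were the smallest of the 7 genes in every pool at 5 dpf, so its fold changes there rest on fewer reads.

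*mvda* encodes mevalonate diphosphate decarboxylase, which yields isopentenyl diphosphate. Its WT pools had 80, 128 and 135 at 5 dpf and its Mut pools 274, 239 and 200. The means were 114 ± 29.9 in WT against 238 ± 37.0 in Mut (SD, n = 3), and the log2 fold change of 1.07 (SE 0.20), or 2.11-fold on the fitted scale, was the largest of the 7 genes at this age. At 8 dpf the values were 337, 273 and 286 in WT and 129, 119 and 132 in Mut, a log2 fold change of -1.23 (SE 0.13). The groups did not overlap at either age. Its paralogue *mvdb* was near the detection limit, with 3, 2 and 1 in WT against 3, 2 and 2 in Mut at 5 dpf, and was not analysed further.

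*fdps* encodes farnesyl diphosphate synthase, which makes the branch-point metabolite. At 5 dpf it stood at 635, 658 and 791 in WT against 1328, 1326 and 969 in Mut, with all Mut pools above WT and a log2 fold change of 0.79 (SE 0.13). At 8 dpf it stood at 1283, 1117 and 1163 in WT and 677, 678 and 703 in Mut, with all Mut pools below WT and a log2 fold change of -0.79 (SE 0.08). The 2 differences were thus of the same size with opposite signs, as they nearly were for *mvk*.

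*ggps1* encodes geranylgeranyl diphosphate synthase, which extends farnesyl diphosphate on a branch that leads away from sterols. It behaved unlike the enzymes before it. The WT pools had 410, 433 and 443 and the Mut pools 352, 402 and 356 at 5 dpf, a log2 fold change of -0.21 (SE 0.09). At 8 dpf the WT pools had 639, 652 and 605 and the Mut pools 555, 533 and 586, a log2 fold change of -0.18 (SE 0.08). The Mut pools all lay under the WT pools at both ages, but by a small amount, and the difference was nearly the same at 5 and 8 dpf.

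*insig1* encodes an endoplasmic reticulum protein that retains the Scap and SREBP complex and also promotes breakdown of HMG-CoA reductase; its gene is itself an SREBP target in mammals. It is a regulator and not an enzyme of the pathway. At 5 dpf its values were 727, 439 and 589 in WT and 410, 524 and 296 in Mut, which overlapped, with a log2 fold change of -0.52 (SE 0.21). At 8 dpf they were 468, 405 and 499 in WT and 194, 182 and 165 in Mut, clear of each other, with means of 457 ± 47.9 and 180 ± 14.6 (SD, n = 3) and a log2 fold change of -1.34 (SE 0.12). *insig1* therefore had a lower Mut mean at both ages, whereas the 5 enzymes from *hmgcs1* to *fdps* had a higher Mut mean at 5 dpf and a lower one at 8 dpf.

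**Figure D1:**
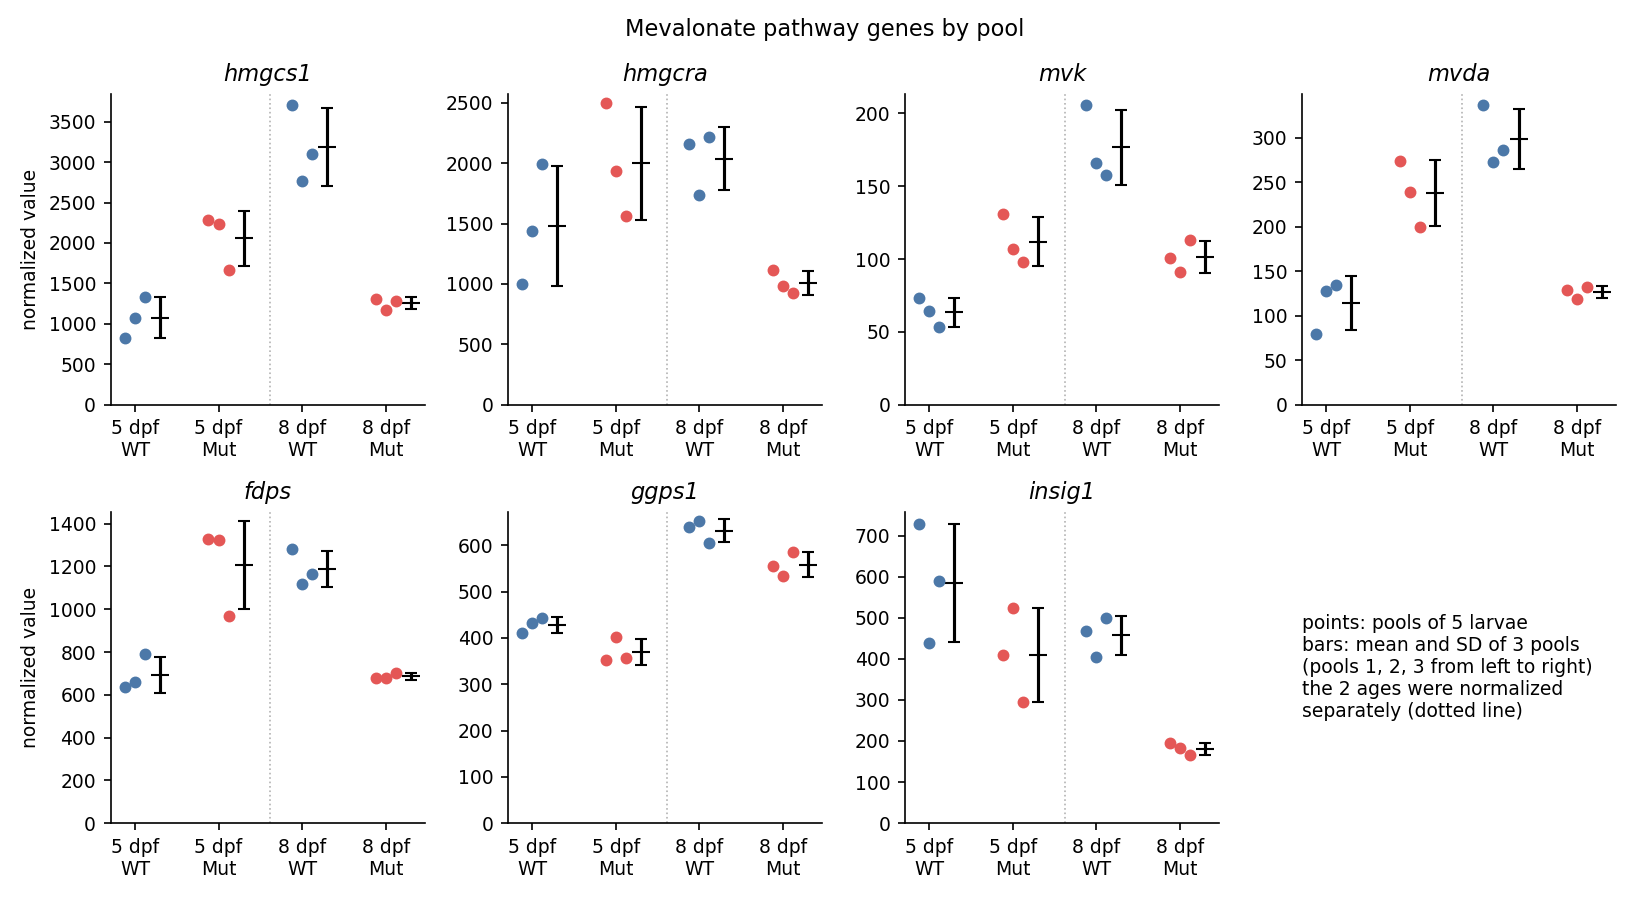
Normalized value (linear axis from 0) of each of the 7 genes in the 12 pools, WT in blue and Mut in red, with the mean and SD of 3 pools in black; the ages were normalized separately. For *hmgcs1*, *mvk*, *mvda* and *fdps* the red points lie above the blue ones at 5 dpf and below them at 8 dpf, while *ggps1* lies slightly lower in Mut at both ages.

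A gene was called higher or lower where limma gave it an adjusted p under 0.05 (Benjamini-Hochberg, over all genes tested) and a log2 fold change of 0.9 or more in size. At 5 dpf, 2 of the 7 genes were called higher in Mut, *hmgcs1* and *mvda*, where 0.608% of the 22521 genes tested were called higher and 1.15% in either direction. By adjusted p alone 4 of the 7 were higher, against 3.82% of all genes, and 4 of 7 had all Mut pools above WT, against 12.9%. *ggps1* was the 1 gene with all Mut pools below WT, against 11.7% of all genes. At 8 dpf, 4 of the 7 were called lower, *hmgcs1*, *hmgcra*, *mvda* and *insig1*, where 0.701% of the 20963 genes tested were called lower and 0.906% in either direction. By adjusted p alone 6 of the 7 were lower, against 3.32%, and all 7 had every Mut pool below every WT pool, against 17.3%. The median log2 fold change of the 7 was 0.79 at 5 dpf and -1.01 at 8 dpf, beside 0.00 and 0.01 over all genes tested. Since the genes were chosen for this contrast, nothing is read from these shares.

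The calls at 5 dpf lay close to the thresholds. Without WT1 the log2 fold change was 0.77 for *hmgcs1* and 0.84 for *mvda*, and without Mut1 or Mut2 neither gene met both thresholds, so that 1 of the 7 was called without WT1 (*mvk*, at 0.92), 0 without Mut1, 0 without Mut2 and 3 without Mut3; at an unadjusted limma p under 0.05 the numbers were 5, 4, 6 and 5. At 8 dpf 3 were called without WT3, without Mut1 or without Mut3 and 2 without Mut2. Leaving out WT3 or Mut3 leaves the other alone in its batch, where the batch term absorbs it. Both therefore amount to the fit of pools 1 and 2 alone and are not separate checks. Among genes just inside and outside the fold threshold, *hmgcs1* at 0.95 and *mvk* at 0.81 were neighbours at 5 dpf, and *hmgcra* at -1.01 and *mvk* and *fdps* at -0.79 at 8 dpf.

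**Figure D2:**
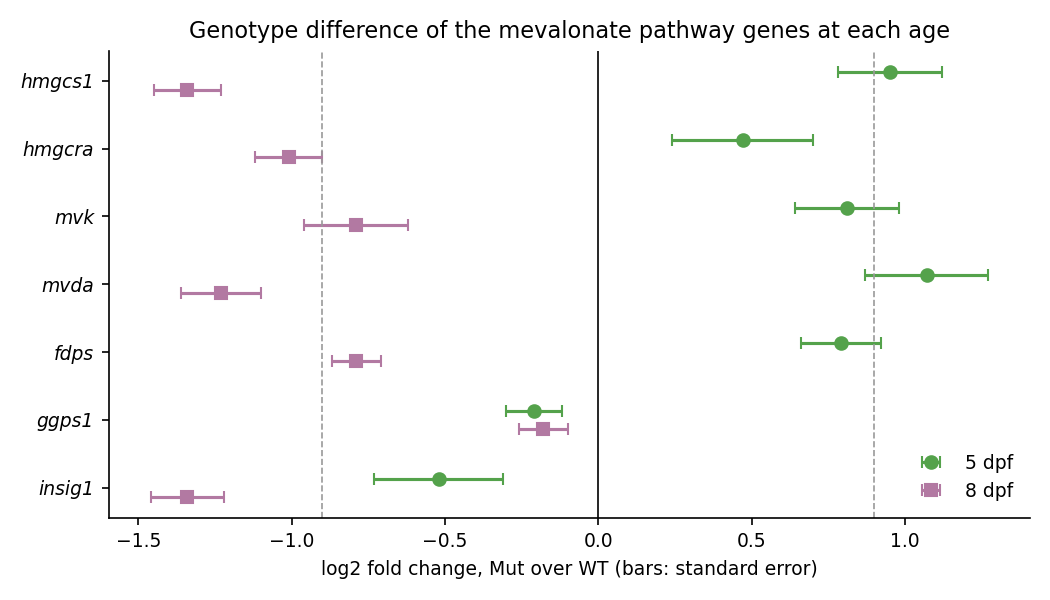
Log2 fold change of Mut over WT for each of the 7 genes at 5 dpf (green circles) and 8 dpf (purple squares), with bars for the standard error and dashed lines at 0.9 and -0.9. All purple squares lie left of 0, and the green circles of *hmgcs1*, *hmgcra*, *mvk*, *mvda* and *fdps* lie right of it.

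The shift between the ages, as the log2 fold change at 8 dpf minus that at 5 dpf, is given as a description. It was -2.30 (SE 0.24) for *mvda* and -2.28 (SE 0.20) for *hmgcs1*. It was -1.60 (SE 0.24) for *mvk*, -1.58 (SE 0.15) for *fdps* and -1.48 (SE 0.25) for *hmgcra*. *insig1* was at -0.82 (SE 0.24), and *ggps1* was at 0.03 (SE 0.12). The 4 genes *hmgcs1*, *mvk*, *mvda* and *fdps* had every Mut pool above WT at 5 dpf and below WT at 8 dpf, a pattern met by 3.11% of the 20598 genes tested at both ages.

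Because the libraries were scaled within each age, the change from 5 to 8 dpf within a genotype was described as each gene's share in 1000000 of its library's summed values (parts per 1000000, ppm), with no test. In WT, *hmgcs1* went from 61.9 to 133 ppm, *mvk* from 3.62 to 7.36 and *mvda* from 6.57 to 12.5, or 2.14-, 2.03- and 1.89-fold, and *fdps* from 39.8 to 49.6. *hmgcra* was level in WT, at 85.0 and 84.9 ppm, and *insig1* went down from 33.4 to 19.1. In Mut the same enzymes went the other way. *hmgcs1* went from 116 to 50.9 ppm, *hmgcra* from 113 to 40.8, *mvda* from 13.5 to 5.14, *fdps* from 68.3 to 27.8 and *mvk* from 6.34 to 4.12. *insig1* went from 23.1 to 7.32 in Mut, the largest drop of the 7 as a ratio, to 0.316 of its 5 dpf share. *ggps1* was 1.08-fold its 5 dpf share in each genotype. The reversal for *hmgcs1*, *mvk*, *mvda* and *fdps* was thus made of higher shares in WT and lower shares in Mut at 8 dpf. For *hmgcra* it was made of lower shares in Mut with level shares in WT. The 8 dpf pools were collected and processed at different times and had a batch shift removed, unlike the 5 dpf pools. This cannot be told apart from age and feeding either. Although food was given, the paper expected starvation in the mutants at 8 dpf.

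At 5 dpf pools of the same genotype differed more in most of these genes than in the median gene with a mean of at least 50. The coefficient of variation was above that median for 6 of the 7 in WT and 7 of the 7 in Mut. For *ggps1* in Mut it was barely above, at 7.51% beside 7.50%. At 8 dpf the coefficient was above the median for 5 of the 7 in WT and 3 of the 7 in Mut. The coefficient of variation over the 3 WT pools at 5 dpf was 33.7% for *hmgcra*, 26.2% for *mvda*, 24.6% for *insig1* and 23.7% for *hmgcs1*, beside a median of 8.65%. For *ggps1* it was 3.95%. WT1 was the lowest WT pool in 5 of the 7 genes and WT3 the highest in 5, and among Mut pools Mut3 was the lowest in 6 and Mut1 the highest in 5. At 8 dpf the pools lay closer together in Mut, with coefficients from 2.15% for *fdps* to 10.8% for *mvk*, beside a median of 6.63%, and in WT were 3.84% for *ggps1*, 12.8% for *hmgcra* and 14.6% for *mvk*, beside a median of 7.86%.

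**Figure D3:**
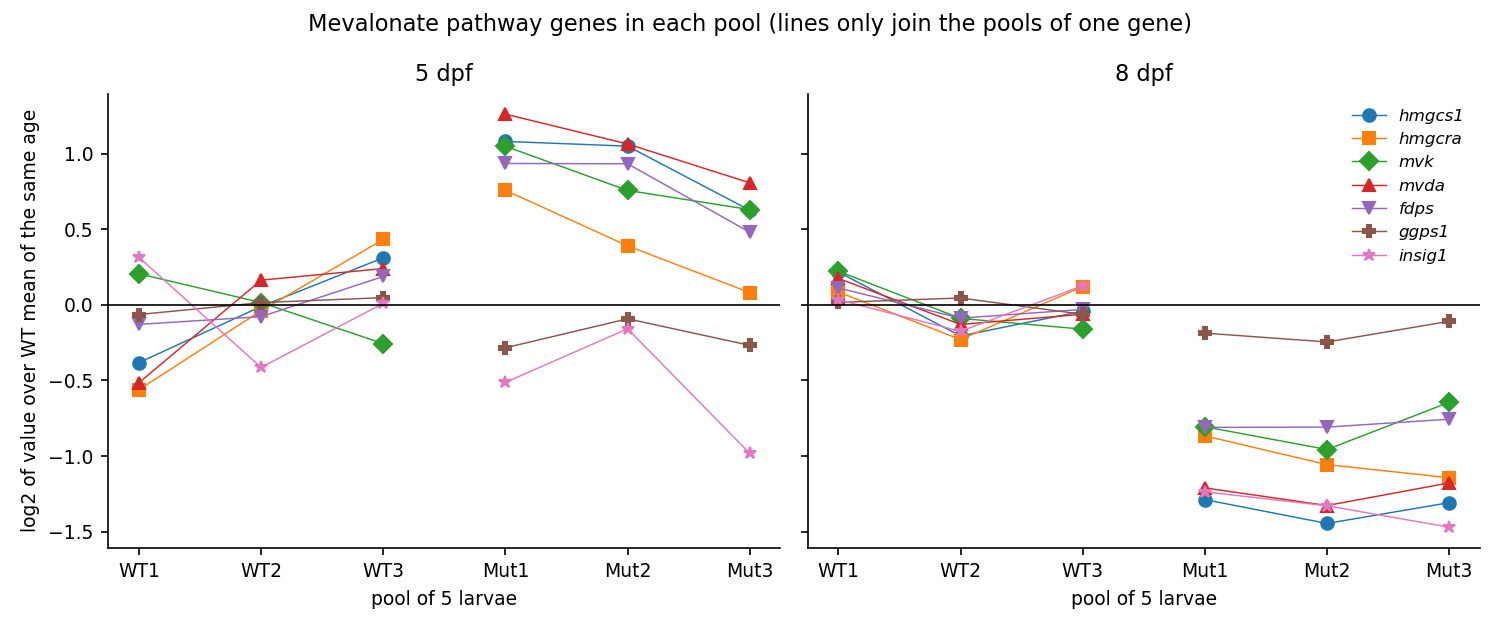
Log2 of each pool's value over the WT mean of the same age, for the 7 genes at 5 dpf (left) and 8 dpf (right); lines join the pools of a gene and carry no order. At 5 dpf the Mut points of *hmgcs1*, *hmgcra*, *mvk*, *mvda* and *fdps* lie above 0 and are lowest in Mut3, and at 8 dpf all Mut points lie below 0.

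The difference at 8 dpf was present in each batch taken alone. The log2 fold change from pools 1 and 2 and from pool 3 was -1.37 and -1.27 for *hmgcs1*, -0.89 and -1.26 for *hmgcra*, -0.94 and -0.48 for *mvk*, and -1.28 and -1.11 for *mvda*. It was -0.82 and -0.73 for *fdps*, -0.25 and -0.05 for *ggps1*, and -1.21 and -1.59 for *insig1*. The second batch held 1 pool of each genotype, so its values have no replicate error.

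The 5 enzymes from *hmgcs1* to *fdps* also moved together across the 12 pools once each age's mean was subtracted. Pearson's r between them ranged from 0.68 to 0.99, with 0.99 for *hmgcs1* and *mvda* and 0.98 for *hmgcs1* and *fdps*. *insig1* had r between 0.36 and 0.55 with these 5 and *ggps1* between -0.09 and 0.22, while *ggps1* and *insig1* had 0.70 with each other. The points share genotype and age, so these values mostly describe the group means and carry no p.

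Over the 20598 genes tested at both ages, the 3 genes reported as most like each of the 7 in this measure included several sterol enzymes. For *hmgcs1* they were *ebp* (r = 0.995) and *lss* (0.993), of the steps from squalene to cholesterol, and *prrc1* (0.984). For *hmgcra* they were *dhcr7* (0.967), a reductase of late cholesterol synthesis, *pfkpa* (0.942) and *msmo1* (0.94), a sterol methyl oxidase. For *mvda* they were *si:dkey-93h22.8* (0.99), *lss* (0.982) and *ebp* (0.975), and for *fdps* they were *ebp* (0.973), *orc5* (0.971) and *nomo2* (0.97). No gene of the lists below came up for the other 3. *mvk* was most like *gemin8* (0.987), *creld2* (0.967) and *nhlrc2* (0.949), *ggps1* most like *fam193b* (0.958), *st8sia1* (0.952) and *usp12a* (0.935), and *insig1* most like *mphosph8* (0.962), *g6pca.2* (0.954) and *slc25a24* (0.952). In all, 7 of these 21 places were taken by genes of the squalene to cholesterol list, which held 13 of the 20598 genes. They were *ebp*, *lss*, *dhcr7* and *msmo1*, with *ebp* and *lss* counted more than once. Since *hmgcs1*, *mvda* and *fdps* were themselves alike, their places are not separate counts. The measure mostly follows the genotype differences by which the 7 genes were chosen, and the list was chosen with earlier results known. Nothing is therefore read from this count.

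The other genes around the pathway were taken from lists by function and tested with limma, 61 genes in all, of which 60 were tested at 5 dpf and 59 at 8 dpf. Not every listed symbol had a gene reported here. Those that did were 4 of 7 for other mevalonate enzymes, 13 of 15 for squalene to cholesterol and 8 of 11 for sterol sensing. They were 11 of 14 for sterol uptake and export, 13 of 14 for other isoprenoid use and 10 of 10 for fatty acids. These lists were chosen with earlier results of these data known, so their counts are not independent of the contrast. At 5 dpf 3 of the 60 were called higher in Mut (*lss*, *ebpl* and *pdss2*) and 0 lower, beside 0.608% and 0.546% of all genes. An unadjusted limma p under 0.05 was reached by 26 of the 60, 8 of them lower and the others higher, beside 4518 of all 22521 genes. At 8 dpf 10 of the 59 were called lower and 1 higher, beside 0.701% and 0.205% of all genes. By adjusted p alone 9 were higher and 0 lower at 5 dpf, beside 861 and 489 of all 22521 genes. At 8 dpf 2 were higher and 19 lower, beside 281 and 696 of all 20963 genes. The difference in log2 fold change between the ages passed an adjusted p of 0.05 for 26 of the 59, of which 25 were lower at 8 dpf, where 8.09% of all genes passed and 6.15% were lower at 8 dpf. The count at 5 dpf depended on single pools, being 0 without WT1 (26 genes at an unadjusted p under 0.05), 6 without WT3, 1 without Mut1, 0 without Mut2 (16 at an unadjusted p under 0.05) and 5 without Mut3. The count of 11 at 8 dpf became 4 without Mut1 and 4 without Mut2. It was 5 without WT3 and 5 without Mut3, which both amount to the fit of pools 1 and 2 alone.

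The remaining mevalonate enzymes resembled the genes above in direction. *acat2*, a thiolase that joins acetyl-CoA units at the start of the pathway, had 397, 427 and 411 in WT against 728, 757 and 640 in Mut at 5 dpf and rose (log2 fold change 0.78, SE 0.09, limma adjusted p = 0.00076). At 8 dpf it was at 738, 708 and 733 in WT and 580, 476 and 523 in Mut and fell (-0.47, SE 0.09, limma adjusted p = 0.033). *idi1*, the isopentenyl diphosphate isomerase, had a log2 fold change of 0.19 (SE 0.09, limma adjusted p = 0.29) at 5 dpf and fell at 8 dpf (-0.86, SE 0.11, limma adjusted p = 0.013). *pmvk*, which acts after mevalonate kinase, passed at neither age, with log2 fold changes of 0.39 (limma adjusted p = 0.27) and -0.74 (limma adjusted p = 0.11), although its Mut pools were all above WT at 5 dpf and all below at 8 dpf. The difference between the ages passed for all 3.

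The 13 genes from squalene to cholesterol held the most calls. At 5 dpf 12 of the 13 had a higher Mut mean, and 4 passed by adjusted p, all higher: *lss*, the lanosterol synthase (log2 fold change 1.20, SE 0.26, limma adjusted p = 0.024), *cyp51*, the lanosterol demethylase (0.88, adjusted p = 0.026), and the sterol isomerase gene *ebp* (0.89, adjusted p = 0.016) with its relative *ebpl* (0.91, adjusted p = 0.024). At 8 dpf all 13 had a lower Mut mean, 11 passed by adjusted p and 8 were called lower. The lowest was *sqlea*, the squalene epoxidase, which acts on squalene, with 739, 529 and 553 in WT and 167, 168 and 191 in Mut (-1.77, SE 0.15, limma adjusted p = 0.0071). *cyp51* was at -1.63, *lss* at -1.61, *ebp* at -1.39, *ebpl* at -1.30, *nsdhl* at -1.16, *hsd17b7* at -1.15 and *msmo1* at -1.09, with limma adjusted p from 0.0071 to 0.038. *lbr*, whose product is also a nuclear envelope protein, was at the other end of the list, with -0.11 at 5 dpf and -0.32 at 8 dpf (limma adjusted p = 0.60 and 0.060). The medians of the list were 0.34 and -1.15, and 12 of the 13 differed between the ages. The gene *cyp51* was named only by tables of genes called as changed, so its place in the list was not independent of the contrast; the same holds for *fads2* below.

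Of the 8 genes that sense sterols or process SREBP, 0 passed by limma at 5 dpf, 1 of them at an unadjusted p under 0.05. At 8 dpf 1 passed, *srebf2*, which encodes SREBP2, with 2011, 2250 and 2254 in WT and 1591, 1416 and 1427 in Mut (log2 fold change -0.55, SE 0.08, limma adjusted p = 0.015). The escort *scap* was highest of the list at both ages, at 0.26 and 0.17 (limma adjusted p = 0.49 and 0.70), and *srebf1* was lowest at 5 dpf, at -0.25 (limma adjusted p = 0.41). The site proteases *mbtps1* and *mbtps2* had log2 fold changes between -0.18 and 0.15. The medians of the list were -0.06 and -0.03, near those of all genes. At 8 dpf these 8 genes lay between -0.55 and 0.17, beside -1.34 for *insig1*, a difference that was not tested.

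Among the 12 genes of sterol uptake and export, *ldlrb*, a receptor for low-density lipoprotein, was called lower at 8 dpf, with 302, 453 and 395 in WT and 171, 201 and 175 in Mut (log2 fold change -1.05, SE 0.16, limma adjusted p = 0.017), and its 5 dpf value was -0.08. Its paralogue *ldlra* was at -0.02 (limma adjusted p = 0.94) at 8 dpf. *npc1*, which carries cholesterol out of lysosomes, rose at 5 dpf (0.37, SE 0.07, limma adjusted p = 0.015) and was at 0.02 at 8 dpf. The ends of the list that did not pass were *abca1b* at -0.29 at 5 dpf, and, at 8 dpf, *abcg1* at 0.37 and a low-level copy of *npc2* at -1.22 (limma adjusted p = 0.34, 0.36 and 0.11).

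Of the 13 genes that use isoprenoids outside sterol synthesis, those of the ubiquinone side chain rose at 5 dpf. *pdss1* and *pdss2* encode the subunits of the enzyme that builds this chain in mitochondria from farnesyl and isopentenyl diphosphate. *pdss1* had a log2 fold change of 0.78 (SE 0.09, limma adjusted p = 0.00098), and *pdss2*, with 85, 88 and 121 in WT and 172, 200 and 187 in Mut, had 0.94 (SE 0.15, limma adjusted p = 0.0063). At 8 dpf they parted: *pdss2* fell, with 386, 328 and 320 in WT and 209, 229 and 245 in Mut (-0.59, SE 0.12, limma adjusted p = 0.035), and *pdss1* was at -0.02 (limma adjusted p = 0.93). *rabggtb*, a subunit of the enzyme that geranylgeranylates Rab proteins, rose at 5 dpf (0.39, limma adjusted p = 0.032) and was at -0.04 at 8 dpf. Neither subunit of the farnesyltransferase, *fnta* or *fntb*, passed at either age, *fntb* being the highest of the list at 8 dpf at 0.18. The lowest at 5 dpf was *rce1b* at -0.56 (limma adjusted p = 0.45), from values of 17 or less, and 6 genes of this list differed between the ages.

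The 11 fatty acid genes that SREBP1 controls in mammals went in mixed directions. At 5 dpf 0 passed by limma, 6 of them at an unadjusted p under 0.05 (1 higher and 5 lower). At 8 dpf *acacb*, an acetyl-CoA carboxylase, was called higher, with 1021, 945 and 1137 in WT and 2227, 2361 and 1997 in Mut (log2 fold change 1.09, SE 0.10, limma adjusted p = 0.0071), and *fads2*, a fatty acid desaturase, was called lower (-1.16, SE 0.25, limma adjusted p = 0.042) from widely spread WT values of 3716, 1715 and 3005. *fads2* was also the lowest of the list at 5 dpf, at -1.41, where its WT pools ranged from 391 to 1467 and it did not pass (limma adjusted p = 0.12), and an *acly* copy was highest at 0.40 (limma adjusted p = 0.16). By adjusted p alone *acaca* and *acsl3b*, both at -0.35, were lower and 1 of 2 *acly* copies, at 0.64, was higher at 8 dpf, and *fasn*, the fatty acid synthase, was at -0.31 (limma adjusted p = 0.081).

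**Figure D4:**
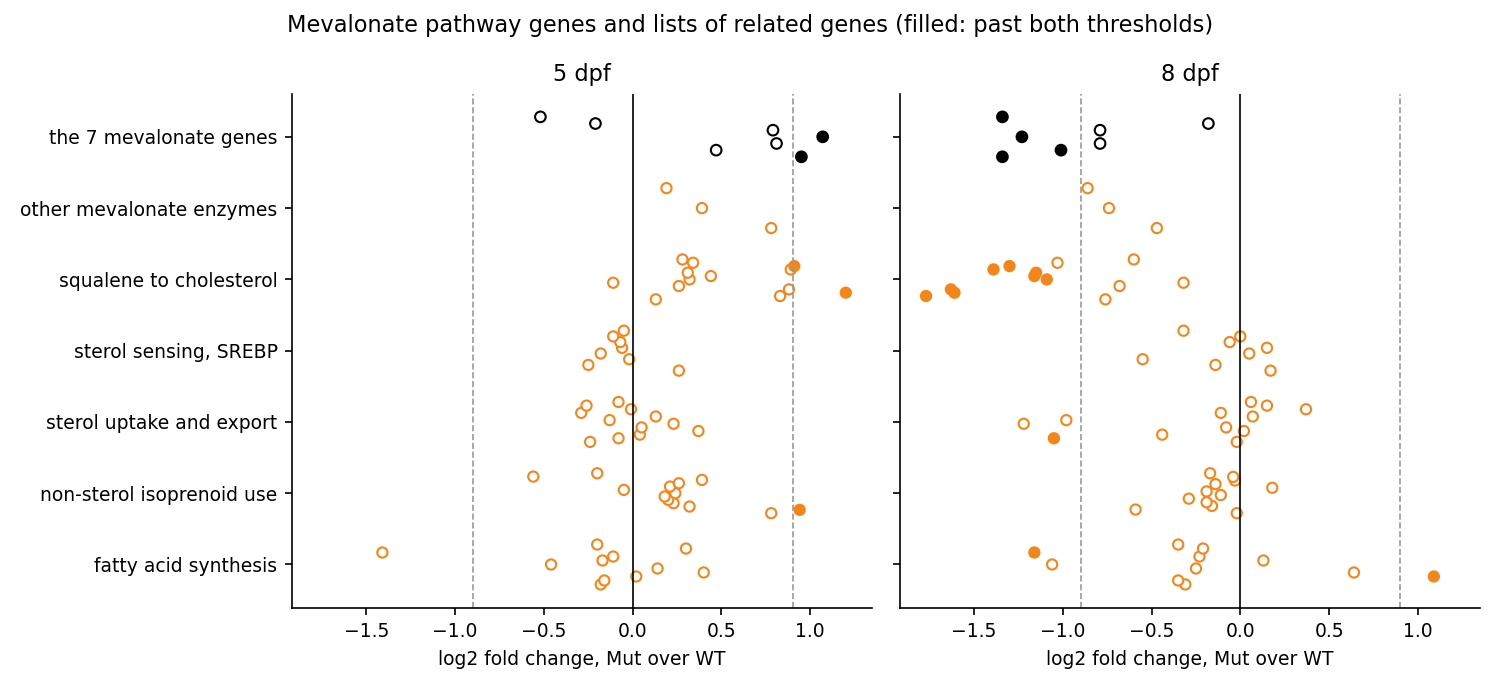
Log2 fold change of Mut over WT at 5 dpf (left) and 8 dpf (right) for the 7 mevalonate genes (black) and the lists of related genes (orange), 1 point per gene, filled where the gene passed both thresholds (dashed lines at 0.9 and -0.9). The squalene to cholesterol points lie mostly right of 0 at 5 dpf, with a median of 0.34, and all left of 0 at 8 dpf, with a median of -1.15.

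Genes listed as markers of liver, intestine, exocrine pancreas and neural tissue were read in the same larvae. Summed normalized values of 11 hepatocyte genes ranged from 123013 to 162287 in WT and from 93198 to 110761 in Mut at 5 dpf. At 8 dpf they ranged from 68412 to 109421 in WT and from 52106 to 66074 in Mut. The log2 fold change was below 0 for 9 of the 11 and above it for 2 at 5 dpf (*fga* and *fgb*, each 0.21). It was below 0 for 10 and above it for 1 at 8 dpf (*rbp4*, 0.18). With *apoa2* left out the 8 dpf sums overlapped. At each age 1 of the 11 was called lower (*cp* at 5 dpf and *apoa2* at 8 dpf), beside 0.546% of all genes at 5 dpf and 0.701% at 8 dpf. By limma adjusted p alone 4 were lower at 5 dpf, beside 489 of all 22521 genes. At 8 dpf 3 were lower, beside 696 of all 20963 genes. For 11 genes listed for enterocytes the sums overlapped at 5 dpf, at 162299 to 272135 in WT and 180159 to 189330 in Mut. At 8 dpf they ranged from 60240 to 101192 in WT and 43298 to 50847 in Mut. Most of each 8 dpf sum was *apoa1b*, at 42735 to 70739 in WT and 25922 to 33036 in Mut, and without it the sums overlapped. Whether such lipoprotein genes mark enterocytes alone was not tested. By limma 0 of the 11 were called at either age (at an unadjusted p under 0.05, 1 higher and 1 lower at 5 dpf and 7 lower at 8 dpf). For 11 exocrine pancreas genes the sums were 88166 to 123541 in WT and 43089 to 54005 in Mut at 5 dpf, where 8 were called lower, and 14690 to 45913 and 6911 to 20650 at 8 dpf, where 0 were called by limma and 6 were lower at an unadjusted p under 0.05. The genes *try*, *cpa4* and *slc15a1b* of these lists were also named only by tables of called genes; without *try* and *cpa4*, 7 of 9 pancreas genes were called lower at 5 dpf. Sums of 7 neural genes overlapped at both ages, and no gene of these 4 lists was at 0 in any pool. At 5 dpf the 5 higher enzymes and the hepatocyte sum, though not each of its genes, thus went in opposite directions. At 8 dpf the enzymes and this sum went in the same direction. The part of organ size in the values above was not tested.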

How the data were processed

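RNA of whole-larva pools was made into stranded mRNA libraries. According to the study's methods and the processing notes, the authors trimmed reads with Trimmomatic 0.33, aligned them with STAR 2.4.0a to GRCz10 and counted them per gene with featureCounts 1.4.5-p1, leaving out multi-mapped reads and reads shared by genes. The deposited score at 5 dpf is the count over a size factor, rounded by the authors; at 8 dpf the authors also removed a batch effect on the log scale and rounded the linear values. Reads of a paralogue that is nearly identical would have been lost. No sequences were printed.

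Gene symbols came from an Ensembl name table and from supplementary tables of the study. The batches at 8 dpf were read from the shift between the study's matrices before and after batch removal. The 7 genes, the lists and the tests were chosen with earlier results of these data known. Genes named were the 7, every other pathway gene past the call, and the ends of each list; 1 pathway gene is not reported here. Per age, limma 3.58.1 (R 4.3.3; eBayes with trend, two-sided) was run on log2 of the value plus 1 for genes whose mean over all pools of that age was 5 or more, with a batch term at 8 dpf. p-values were Benjamini-Hochberg adjusted over all genes. Differences between the ages were tested over 20598 genes by a t test. It divided each difference by the root of the summed squared standard errors of both fits. Count models were not used because the scores are not counts. The authors' own comparisons hold fold changes and p-values, and none of these were used. On simulated data, 200 of 200 changed genes were recovered at 5 dpf among 22521 genes, 200 of 200 at 8 dpf among 20963, and 383 of 390 for the difference between the ages. The simulated log2 changes were larger in size than those of the 7 genes at either age, and there was no batch shift. Spread between simulated pools was less than that of *hmgcs1*, *hmgcra*, *mvda* and *insig1* in WT at 5 dpf. This recovery therefore does not measure how many changes like those described here would be found. Replicate numbers were not taken to pair the pools beyond the batches at 8 dpf. Alternatives were the pseudocount, the filter, scaling, the trend, the batch term, the replicate block and leaving out each pool.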

Additional observations from a re-analysis of the deposited data

Results flagged for a closer look

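For 4 of the 7 genes every Mut pool was above WT at 5 dpf and below it at 8 dpf, a difference that was not tested because the genes were chosen on it. The log2 fold change at 8 dpf minus that at 5 dpf was -2.28 for *hmgcs1*, -1.60 for *mvk*, -2.30 for *mvda* and -1.58 for *fdps*.

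Among the related genes called at either age, the difference itself was tested by a t test built from both limma fits. These genes were listed because they were called in the same data, so their differences are not independent of those calls. The difference passed for sterol enzymes, all lower at 8 dpf. It was -2.81 for *lss* (t test adjusted p = 5.4e-05), -2.61 for *sqlea* (4.3e-05), -2.51 for *cyp51* (6.4e-06), -2.28 for *ebp* (7e-06) and -2.21 for *ebpl* (0.00074). It was -1.60 for *nsdhl* (t test adjusted p = 9.4e-05), -1.47 for *hsd17b7* (0.0011) and -1.41 for *msmo1* (0.0052). Outside sterol synthesis it was -1.53 for *pdss2* (t test adjusted p = 0.0001), -0.97 for *ldlrb* (0.011) and 1.06 for *acacb* (0.00011). For *fads2*, called lower at 8 dpf, it was 0.25 and did not pass (t test adjusted p = 0.84). Between the ages the larvae also differed in feeding, and the pools in how they were collected and processed.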

How the results depend on the processing

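Of 210 alternative values of the 7 genes' log2 fold changes, 207 moved by less than the spread between pools. The other 3, of *ggps1* at 8 dpf, were -0.25, all from what amounts to the fit of pools 1 and 2 alone. In this balanced design the filter, the trend, the replicate block and the batch term cannot change a log2 fold change. Values under those settings were fixed in advance, so the 210 are not as many separate checks. None of these 210 changed sign. A gene with widely spread pools could move far and still count as unmoved by this measure. At 5 dpf, with single pools left out, *hmgcra* ranged from 0.21 to 0.71 and *insig1* from -0.72 to -0.30. Of 360 alternative values of the other pathway genes called at either age, 281 kept their direction and their side of the thresholds, 70 no longer passed, 6 newly passed and 3 changed sign, at 5 dpf where the genes were not called: *ldlrb* was at 0.09 without WT3 (range -0.27 to 0.09 over pools left out), and *acacb* at -0.08 without WT2 and -0.02 without Mut1 (range -0.08 to 0.12). Values near 0 of genes that were not called also crossed it when single pools were left out, such as *srebf2* at 5 dpf (-0.12 to 0.03) and *ldlra* at 8 dpf (-0.12 to 0.08).

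Counts of calls were less stable. With no filter on low values, 94 genes in place of 260 were called at 5 dpf, 0 of the 7 (5 at an unadjusted limma p under 0.05) and 0 of the other pathway genes (21). Without the trend in limma's eBayes, 159 genes, 0 of the 7 (4 at an unadjusted p under 0.05) and 0 other pathway genes (19) were called at 5 dpf, and 0 genes (3873), 0 of the 7 (6) and 0 other pathway genes (32) at 8 dpf, where 190 genes had been called; other pathway genes that differed between the ages went from 26 to 14. With no fold threshold the counts were 1350 genes, 4 of the 7 and 9 other pathway genes at 5 dpf, and 977 and 21 at 8 dpf. With pools 1 and 2 alone at 8 dpf they were 91 genes and 5 other pathway genes. Leaving out WT3 or Mut3 amounts to the same fit.

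Leaving out each pool in turn gave 183 to 344 genes, 0 to 3 of the 7 and 0 to 6 other pathway genes at 5 dpf. At 8 dpf it gave 26 to 195 genes, 2 to 4 of the 7 and 4 to 9 other pathway genes, and 18 to 25 other pathway genes that differed between the ages. Deviations of same-numbered pools correlated at -0.28, -0.191 and -0.096 at 5 dpf, so the numbers were not taken to pair the pools there. At 8 dpf the correlations were -0.281, -0.184 and -0.999. Removal of the batch shift makes the deviations of both pools 3 mirror each other, so the 8 dpf correlations cannot decide pairing. Beyond the batch that both pools 3 shared, the numbers were not taken to pair the 8 dpf pools either. With the replicate block 2 and 4 of the 7 were called, and 1 and 9 other pathway genes, at 5 and 8 dpf. With 3 pools against 3 an exact permutation test cannot go below p = 0.1, so single values were not tested that way.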
